A study of Mus musculus with 32 samples.

Results

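Brain and heart, organs built largely of excitable and long-lived cells, were set against kidney and liver, organs built largely of epithelial cells, for the 5-methylcytosine (5mC) signal of their genes. The comparison used 8 columns of a deposited MeDIP-seq table, 4 of brain and heart and 4 of kidney and liver. It took the genes with at least 1 CPM, a read count scaled to library size, in at least 2 of the 8 columns, which were 25982 of 27179. MeDIP-seq pulls down methylated DNA fragments with an antibody against 5mC and sequences them, so a higher value means more precipitated reads on a gene.

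The tissue came from mice, whose strain, age and sex the labels do not give. Brain and heart each had a frozen and an FFPE column, and so did kidney and liver. Frozen tissue had been flash frozen, and FFPE tissue had been fixed in 10% formalin and embedded in paraffin. Each column is called a library here, and sets of 4 values are given with brain before heart, or kidney before liver, and frozen before FFPE within each organ. The labels list 32 samples in 16 groups of 2, with 16 samples of 5mC precipitate and 16 of unselected DNA called Input, all of single-stranded genomic DNA. The table holds 1 column per organ and preservation, so replicates within a group could not be used. The labels name no separation of cell types within an organ, so a change in the mix of cell types and a change of methylation within a cell type cannot be told apart. Input was not analysed here, so copy number and methylation cannot be told apart either.

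In mammals most 5mC sits on cytosines that are followed by guanine, the CpG sites. CpG-rich promoters are mostly free of it, while gene bodies and CpG-poor regions mostly carry it. Genes that are active in a cell type often have less 5mC at their promoters and enhancers there than in other cell types, and the developmental genes of large unmethylated domains can gain it. The value of a gene here sums reads over the counted feature, which the sources used here do not name, and does not separate promoter from gene body.

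The libraries held 2164158 to 3699218 reads counted on genes, and 880 (frozen brain) to 2999 (frozen kidney) of the 27179 genes had no read in a library. The frozen kidney library stood apart, since 54.4% of its low counts were even numbers, against 48.8% to 51.0% in the others. The spread of log2 CPM over genes was narrower in brain and heart (SD 1.75, 2.02, 1.99 and 2.24) than in kidney and liver (SD 2.67, 2.34, 2.49 and 2.60), with no overlap between the classes. Markers of RNA in a cell type do not test the identity of an organ from its DNA. Among 4 hepatocyte markers, Alb had a log2 difference of 0.92 ± 0.27 (SE; adjusted p = 0.0199), Apob 0.84 ± 0.17 (adjusted p = 0.00187), Fga 0.85 ± 0.15 (adjusted p = 0.000773) and Ttr 0.38 ± 0.24 (adjusted p = 0.253). Of 4 cardiomyocyte markers, Ttn and Myh6 were called lower and Tnnt2 (-0.25 ± 0.28) and Actc1 (-0.44 ± 0.23) were not called. Of 4 neuron markers, Tubb3 and Rbfox3 (-0.44 ± 0.14) were called lower and Snap25 (0.20 ± 0.43) and Syn1 (0.55 ± 0.53) were not called.

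Hepatocyte and proximal tubule genes had more higher than lower calls for 5mC signal in brain and heart. Zinc finger and imprinted genes had more lower than higher calls, as did podocyte genes, and distal nephron genes had as many of each. Relative to the median of genes in the same decile of signal, the zinc finger, imprinted and podocyte medians were -0.05, -0.08 and 0.12. Differences are log2 CPM of brain and heart minus kidney and liver, averaged over the 2 organs of a class, and were tested with limma and Benjamini-Hochberg adjustment over the 25982 genes. At an adjusted p under 0.05, 2948 genes were called higher in brain and heart (11.3% of those tested) and 3911 were called lower (15.1%). The sign was the same in frozen and FFPE tissue for 2947 of the 2948 higher genes and for all 3911 lower genes. The test calls a gene when its difference is large against changes with preservation, so this agreement follows largely from the call. A change of the difference with preservation was called for 0 genes by limma (0%), with 1485 at an unadjusted p under 0.05 and a smallest adjusted p of 0.824. That count was 204 and 202 without the frozen and the FFPE kidney library and 1958 and 1983 without those of liver. The 4 libraries of brain and heart lay above the 4 of kidney and liver for 2194 genes (8.44%) and below them for 2528 (9.73%). Of the called genes, 1525 of the higher (51.7%) and 2293 of the lower (58.6%) were separated in this way.

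The spread behind these tests is the change of an organ difference with preservation, so the p-values do not cover differences between animals. With the 2 organs of a class treated as its replicates, 954 genes were called higher and 1982 lower, all of them among those called above. The count of higher genes was 845 and 1470 without the frozen and the FFPE brain library, 848 and 1076 without those of heart, 1580 without FFPE liver and 5029 without FFPE kidney. The count of lower genes was 2426 without frozen heart and stayed within 1.5 times of 3911 without each of the other libraries.

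The difference followed the signal level of a gene. From the decile of genes with the lowest mean signal to the decile with the highest, the median log2 difference ran 1.15, 0.996, 0.75, 0.52, 0.29, 0.13, -0.01, -0.14, -0.27 and -0.46. The lowest decile held 225 higher and 3 lower genes, and the highest decile held 66 higher and 1566 lower genes. The narrower spread of the brain and heart libraries moves with this pattern. The part of this spread in the pattern was not tested. The library size that the deposited scale implies was 1.09, 1.10, 1.08 and 1.06 times the counted reads in brain and heart. In kidney and liver it was 0.956, 0.978, 0.925 and 0.851 times. Such a factor shifts every gene of a library by the same log2 amount, so it moves all deciles alike. After quantile normalization, which gives every library the same distribution, 2184 genes were higher (8.41%) and 2383 lower (9.17%). Of the genes called on the deposited values, 1446 higher (49.1%) and 2007 lower (51.3%) were called again in the same direction. The share of higher genes among those called was 43.0% as deposited, 47.8% after quantile normalization and 25.04% with each library centred on its median. The median difference of all tested genes was 0.16, 0.01 and -0.01 under these 3 scalings, and the results for gene groups are given with their quantile values beside them.

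**Figure D1:**
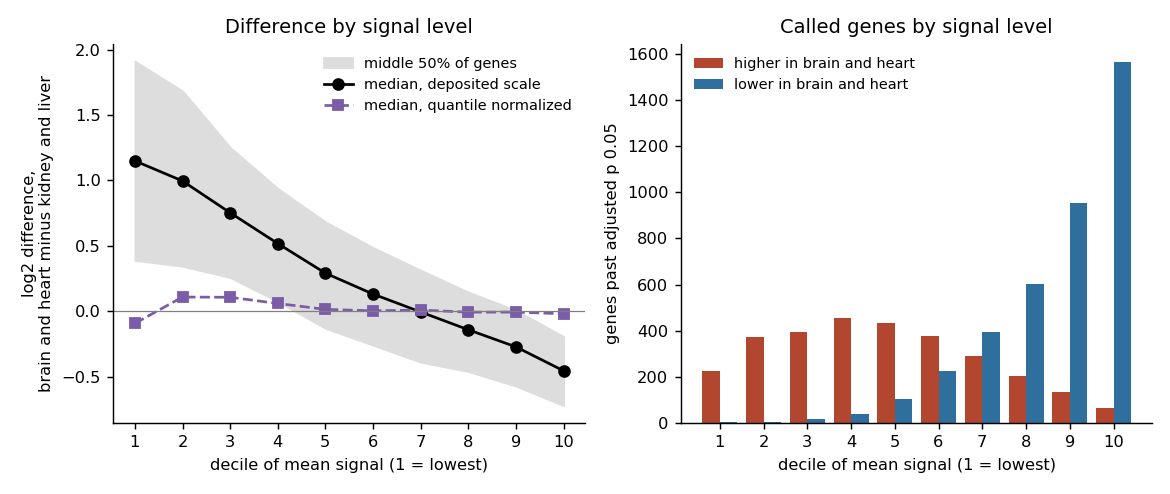
Median log2 difference in 5mC signal (brain and heart minus kidney and liver) and number of called genes by decile of mean signal; the grey band holds the middle 50% of genes. The median falls with rising signal from 1.15 to -0.46 on the deposited scale and stays near 0 after quantile normalization.

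Brain differed from kidney and liver at more genes than heart did. Brain against kidney gave 4171 called genes (16.1%), brain against liver 7405 (28.5%), heart against kidney 643 (2.47%) and heart against liver 3133 (12.1%). Within the classes, brain against heart gave 445 (1.71%) and kidney against liver 493 (1.9%), with the same standard error for all 6 pairs. After quantile normalization the 4 pairs across the classes gave 3635, 5688, 454 and 1647 genes, in the same order, and brain against heart gave 1775 and kidney against liver 172. Heart against kidney and heart against liver thus each had fewer called genes than brain against heart on that scale. With library quality weights on the deposited values, the 4 pairs across the classes gave 2954, 9421, 482 and 5070 genes. Brain against heart then gave 3340 and kidney against liver 184, with standard errors that differed between pairs. The count within a class thus depended on the setting. These pairs share libraries, so their counts are not independent of each other.

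**Figure D2:**
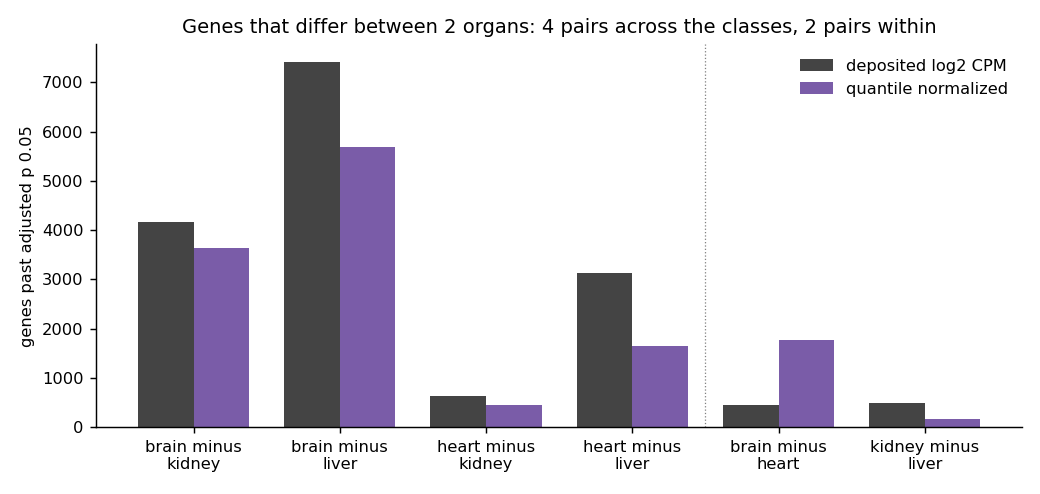
Genes past an adjusted p of 0.05 for each of the 6 pairs of organs, with the 4 pairs across the classes left of the dotted line and the 2 pairs within a class right of it. Brain against liver has the most (7405 as deposited), and heart against kidney (643) is near the pairs within a class (445 and 493).

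The mitochondrial genome gave more reads in brain and heart. It is present in many copies per cell and encodes subunits of the respiratory chain and its ribosomal RNAs, and its 15 genes were chosen after their values were seen. They held 8.66% of the reads in frozen brain and 7.24% in frozen heart, against 2.68% in frozen kidney and 1.35% in frozen liver. In FFPE tissue they held 1.76% in brain and 2.72% in heart, against 0.885% in kidney and 1.64% in liver. The classes did not overlap within a preservation and overlapped across preservations. Of the 15 genes, 12 were called higher and none lower on the deposited values, and all 15 were called higher after quantile normalization. ND5, a subunit of complex I, had 20061, 4178, 16991 and 6883 CPM in brain and heart, against 5944, 2279, 3681 and 4605 CPM in kidney and liver. Its log2 difference was 1.35 ± 0.28 (limma adjusted p = 0.00259), a 2.56-fold higher signal in brain and heart. The median difference of the 15 genes was 1.86 in frozen and 0.60 in FFPE tissue. Nuclear copies of mitochondrial sequence can share these reads, and copy number cannot be told apart from 5mC without Input.

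The gene of the repeated ribosomal DNA moved the other way. Rn45s, the precursor of the large ribosomal RNAs, held 0.6999% of the reads in frozen brain and 0.521% in frozen heart, against 2.34% in frozen kidney and 1.56% in frozen liver. In FFPE tissue it held 2.14% in brain and 1.84% in heart, against 3.49% in kidney and 4.97% in liver. The classes did not overlap within a preservation but did across them. Its log2 difference was -1.58 ± 0.25 (limma adjusted p = 0.000306), and Rn18s, the small-subunit RNA gene, had -1.42 ± 0.16 (adjusted p = 2.22e-05). Both were picked after their values were seen, and reads of repeated copies cannot be placed on 1 copy.

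**Figure D3:**
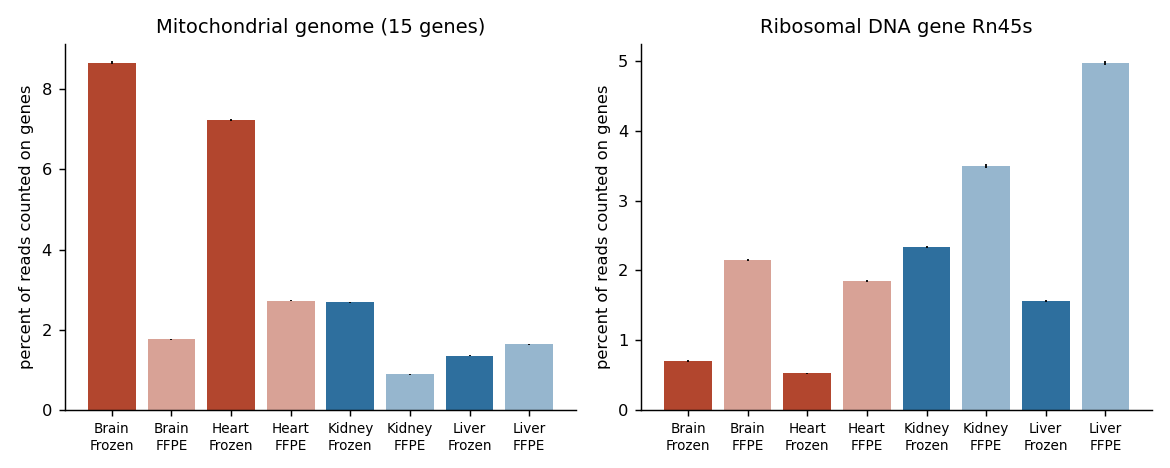
Percent of counted reads on the 15 genes of the mitochondrial genome (left) and on Rn45s (right) in each library, with brain and heart in red and kidney and liver in blue, FFPE in the paler tone, and exact 95% intervals for counting error. Frozen brain and frozen heart have the highest mitochondrial shares (8.66% and 7.24%) and the lowest Rn45s shares (0.6999% and 0.521%).

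Hepatocyte genes, which encode the secreted proteins and enzymes of the liver's main cell, had more higher than lower calls in brain and heart. Of 50 measured, 21 were called higher and 2 lower, with a median log2 difference of 0.60, against 0.16 for all tested genes. After quantile normalization 20 were higher and 1 lower. The median was 1.24 for brain against liver and 0.96 for heart against liver, but 0.32 for brain against kidney and 0.07 for heart against kidney. The higher count was 11 to 13 without either brain library, either heart library or frozen liver, 3 without both brain or both liver libraries and 37 without both kidney libraries. The lower count was 1 to 2 with any 1 library left out.

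Pck1, which encodes phosphoenolpyruvate carboxykinase of gluconeogenesis in liver and kidney (chromosome 2, 173153073 to 173159274, GRCm38.p6), had 71.5, 77.8, 72.5 and 74.4 CPM in brain and heart, against 45.7, 37.6, 19.7 and 29.7 CPM in kidney and liver. All 4 brain and heart libraries lay above all 4 of kidney and liver, and the lowest values were those of liver. The log2 difference was 1.22 ± 0.17, 2.34-fold higher in brain and heart (limma adjusted p = 0.000129), and it held its call in every fit that left out 1 library or 1 organ. Fga, which encodes a fibrinogen chain, had 82.7, 90.9, 58.1 and 79.6 CPM in brain and heart, against 80.3, 85.3, 21.5 and 22.5 CPM in kidney and liver. Only the liver libraries were low, kidney lay within the range of brain and heart, and without both liver libraries the difference was -0.11 in place of 0.85 ± 0.15. G6pc, the glucose 6-phosphatase of liver and kidney, had 31.1, 36.6, 24.4 and 26.4 CPM in brain and heart, against 15.6, 21.97, 8.91 and 9.28 CPM in kidney and liver. Its libraries did not overlap, and its difference of 1.17 ± 0.24 (adjusted p = 0.00263) was no longer called without both brain libraries (adjusted p = 0.118) or both liver libraries (0.129).

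Genes of kidney tubule transport had higher calls for some members. Of 35 proximal tubule genes 9 were called higher and 0 lower (median 0.33), and the same counts were found after quantile normalization. The medians of brain and heart against kidney were 0.31 and 0.21, and those against liver were larger, 0.53 and 0.33. The higher count was 2 to 5 without either brain library, either heart library or either liver library, and the lower count 0 to 1. Slc22a6, which encodes an organic anion transporter of the proximal tubule, had 41.5, 44.4, 36.3 and 27.2 CPM in brain and heart, against 29.3, 19.14, 16.5 and 14.2 CPM in kidney and liver. The highest kidney value exceeded the lowest heart value, and its difference was 0.95 ± 0.21 (adjusted p = 0.00451). Of 33 distal nephron and collecting duct genes 4 were higher and 4 lower, with 1 to 6 and 0 to 5 when 1 library was left out. Pax2, a transcription factor of kidney development, was high only in kidney, with 26.5, 17.2, 13.5 and 14.5 CPM in brain and heart, against 69.98, 74.4, 13.3 and 13.1 CPM in kidney and liver. Of 12 podocyte genes 1 was higher and 4 lower, none of the lower ones called after quantile normalization, and 1 to 4 lower with 1 library left out. Relative to genes of like signal, 7 podocyte genes lay above and 5 below.

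Metabolic genes that kidney and liver share had more higher than lower calls in brain and heart. Of 53 genes of gluconeogenesis and amino acid breakdown 23 were called higher and 4 lower (median 0.52), or 14 and 1 after quantile normalization. The medians of brain and heart against kidney were 0.38 and 0.37, and against liver 0.78 and 0.69. The higher count was 6 to 15 without either brain library, either heart library or either liver library, and the lower count 0 to 4. Ftcd, an enzyme of histidine breakdown, had 38.98, 35.4, 37.03 and 39.5 CPM in brain and heart, against 24.1, 15.4, 23.2 and 14.2 CPM in kidney and liver. The libraries did not overlap and the 4 brain and heart values were close together, with a difference of 1.01 ± 0.22 (limma adjusted p = 0.00354). Tdo2, which opens the tryptophan ring, differed by 1.75 ± 0.36 (adjusted p = 0.00225), also with no overlap. Of 25 transcription factor genes active in liver and kidney 7 were higher and 3 lower, and the higher count was 3 to 4 without frozen brain or either heart library. Nr1h3, a nuclear receptor for oxysterols, was among the lower ones with 27.3, 27.9, 28.96 and 36.3 CPM in brain and heart, against 53.9, 61.7, 50.7 and 59.3 CPM in kidney and liver.

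Most genes of transporters and enzymes of foreign compounds were not called, and the higher calls among the enzymes depended on the scaling. Of 60 organic ion and bile transporter genes 14 were higher and 5 lower, or 16 and 1 after quantile normalization. Slco1b2, an organic anion transporter of the hepatocyte, had 35.6, 35.1, 15.6 and 18.5 CPM in brain and heart, against 10.5, 10.6, 8.03 and 11.9 CPM in kidney and liver. Its libraries did not overlap and brain was the highest organ, with a difference of 1.27 ± 0.28 (limma adjusted p = 0.00366) that was not called without both brain libraries (adjusted p = 0.33). Of 94 cytochrome P450 genes 20 were higher and 2 lower, but 9 and 2 after quantile normalization. Of 66 conjugation enzyme genes 13 were higher and 1 lower, but 4 and 1 after it, where 8.41% of all tested genes were higher. The median of the conjugation genes was 0.99, and 0.28 relative to the median of genes in the same decile of signal. The higher count of the transporters was 3 to 9 without either brain library, either heart library or frozen liver. That of the P450 genes was 7 to 13 without either brain library, either heart library or either liver library and 34 without FFPE kidney, and that of the conjugation genes 0 to 7 without either brain library, either heart library or frozen liver and 25 without FFPE kidney. The lower counts in the 3 lists were 2 to 6, 2 to 4 and 1 to 2.

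Genes of electrical excitability, the shared property of neurons and heart muscle, had more lower than higher calls on the deposited values, which for sodium and calcium channels turned round after quantile normalization. Of 32 voltage-gated sodium and calcium channel genes 13 were lower and 1 higher, with a median of -0.27 that turned to 0.11 under quantile normalization, with 1 lower and 8 higher. The lower count was 7 to 8 without frozen heart or frozen liver, and the higher count 0 to 3. Relative to the median of genes in the same decile of signal, their median was 0.12. Scn8a, a sodium channel of the axon, had 262, 288, 249 and 269 CPM in brain and heart, against 474, 428, 482 and 482 CPM in kidney and liver. The classes were far apart, and the difference was -0.80 ± 0.11 (limma adjusted p = 8.84e-05), but -0.24 after quantile normalization (adjusted p = 0.114). Of 31 genes of calcium release and ion pumps 12 were lower and 2 higher, with a median of -0.27 that became 0.03 under quantile normalization, with 4 lower and 3 higher. Their median relative to genes of like signal was 0.0045. The higher count there was 0 to 2 with 1 library left out.

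Potassium and pacemaker channel genes had more lower than higher calls under both scalings. Of 84 measured, 27 were lower and 7 higher, or 15 and 10 after quantile normalization, and the higher count was 0 to 4 without either brain library, either heart library or frozen liver and 11 without FFPE kidney. Of all tested genes, 9.17% were lower and 8.41% higher after quantile normalization. The median of the list was -0.19 as deposited and -0.03 after quantile normalization. Relative to genes of like signal it was -0.07, with 37 genes above and 47 below. Hcn2, a pacemaker channel of brain and heart (chromosome 10, 79716634 to 79736108), had 80.7, 109, 96.7 and 131 CPM in brain and heart, against 401, 222, 318 and 391 CPM in kidney and liver. Every brain and heart library lay below every kidney and liver library. The difference was -1.66 ± 0.17, 3.16-fold lower (limma adjusted p = 1.55e-05), and -1.16 after quantile normalization (adjusted p = 4.62e-05). Kcnj11, the pore of the ATP-sensitive potassium channel, had 64.8, 43.2, 50.02 and 62.9 CPM in brain and heart, against 142, 123, 118 and 140.0 CPM in kidney and liver. It too was separated in all libraries, with a difference of -1.26 ± 0.16 (adjusted p = 5.14e-05). Kcnj4, an inward rectifier, differed by -1.19 ± 0.12 (adjusted p = 1.25e-05). Slc8a2, a sodium-calcium exchanger of neurons, differed by -1.04 ± 0.12, and Casq1, the calcium store protein of skeletal muscle, by -1.26 ± 0.16. Of 19 connexin genes 5 were lower and 2 higher, the higher count being 0 to 4 with 1 library left out.

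Among the cell types of brain and heart, genes of neurons had lower medians in brain than in heart, as genes of like signal also did. Of 40 neuron genes 14 were lower and 4 higher (median -0.15), or 6 and 2 after quantile normalization. The median was -0.51 for brain against kidney and -0.31 for brain against liver, but -0.05 for heart against kidney and 0.02 for heart against liver. The lower count was 9 without frozen heart and the higher count 1 to 4. The median signal of these genes lay between those of deciles 8 and 9, counted from the lowest. All tested genes of decile 8 had medians of -0.22 and -0.25 for brain against kidney and liver, and -0.06 and -0.09 for heart. In decile 9 they were -0.30 and -0.41 for brain, and -0.15 and -0.24 for heart. The neuron median was below both deciles for brain against kidney, but between them for brain against liver. Between brain and heart, 2 of the 40 genes were called lower in brain and 0 higher. Tubb3, the neuronal tubulin, had 48.1, 63.8, 71.4 and 105 CPM in brain and heart, against 126, 155, 133 and 173 CPM in kidney and liver. Brain was the lowest organ, the classes did not overlap, and the difference was -1.07 ± 0.12 (limma adjusted p = 2.78e-05). Bsn, a scaffold protein of the presynaptic active zone, differed by -0.89 ± 0.12 (adjusted p = 8.33e-05), and by -0.30 after quantile normalization (adjusted p = 0.0711). Of 23 genes of astrocytes and oligodendrocytes 7 were lower and 2 higher, the higher count being 0 to 3 with 1 library left out. Sox9, a glial and kidney transcription factor, was lowest in heart with 64.4, 47.3, 16.7 and 18.5 CPM in brain and heart, against 133, 54.1, 121 and 137 CPM in kidney and liver.

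Cardiomyocyte genes had their lower values mostly in heart. Of 43 measured, 11 were lower and 2 higher (median -0.21), with medians of -0.52 for heart against kidney and -0.40 for heart against liver, and -0.05 and -0.05 for brain. After quantile normalization 7 were lower and 2 higher. The lower count was 6 to 7 without frozen heart or frozen liver, the higher count 0 to 5, and 3 were lower without both heart libraries. Ttn, the giant sarcomere protein, had 2798, 3499, 2194 and 2579 CPM in brain and heart, against 4384, 4467, 4810.4 and 4924 CPM in kidney and liver. The classes were separated and heart was the lowest organ, with a difference of -0.77 ± 0.14 (limma adjusted p = 0.00116) that was not called with organs as replicates (adjusted p = 0.058) or without both heart libraries (0.0727). Casq2, the cardiac calcium store protein, had 45.2, 56.3, 35.98 and 29.98 CPM in brain and heart, against 72.4, 56.9, 70.8 and 87.7 CPM in kidney and liver. FFPE kidney and FFPE brain lay next to each other, and the difference was -0.81 ± 0.17 (adjusted p = 0.00250).

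**Figure D4:**
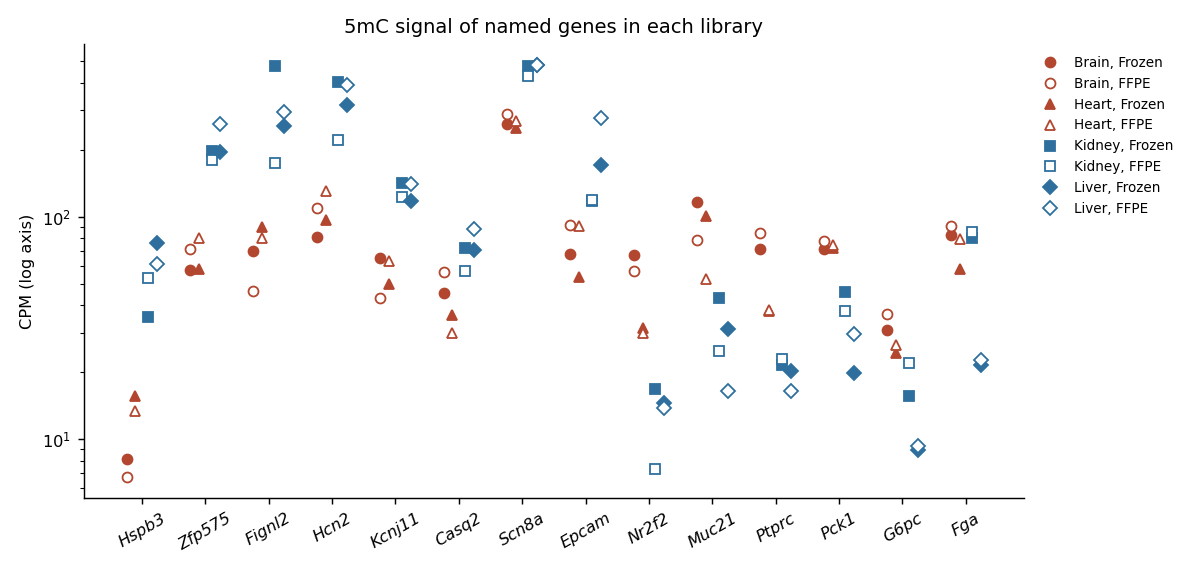
5mC signal in CPM (log axis) of 14 genes named in the text in the 8 libraries, with brain and heart in red on the left of each gene and kidney and liver in blue on the right, and open symbols for FFPE tissue. The genes from Hspb3 to Epcam are lower in brain and heart and those from Nr2f2 to Fga are higher, and Fga is low in liver alone.

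Epithelial genes did not share a direction. Of 48 genes of epithelial adhesion and tight junctions 14 were lower in brain and heart and 6 higher, with a median of -0.10 that became 0.04 under quantile normalization, with 5 lower and 4 higher. Epcam, an adhesion protein of epithelia, had 68.2, 91.5, 53.5 and 90.3 CPM in brain and heart, against 118, 118, 170.1 and 278 CPM in kidney and liver. The classes did not overlap, FFPE liver was the highest, and the difference was -1.11 ± 0.14 (limma adjusted p = 5.65e-05). Of 28 genes of simple-epithelium keratins and epithelial factors 5 were lower and 5 higher. Klf5, an epithelial transcription factor, differed by -0.77 ± 0.15 (adjusted p = 0.00133), and Esrp2, an epithelial splicing factor, differed by 1.37 ± 0.31 (adjusted p = 0.00456), which was not called without frozen brain (adjusted p = 0.0527) or frozen heart (0.0571). With 1 library left out, the higher counts of the adhesion and keratin lists were 1 to 6 and 0 to 7, and the lower count of the keratin list 2 to 7.

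The largest differences were taken among called genes of above-median signal whose libraries did not overlap. Among the 15 largest with more signal in brain and heart, Cyp1b1, a P450 of steroids and foreign compounds (chromosome 17, 79706940 to 79715061), had 91.5, 88.6, 21.9 and 27.2 CPM in brain and heart, against 21.1, 9.22, 6.86 and 20.6 CPM in kidney and liver. Brain was several times above heart, frozen heart and frozen kidney were next to each other, and the difference of 1.86 ± 0.33 (limma adjusted p = 0.000715) was not called without both brain libraries (adjusted p = 0.251). Nr2f2, an orphan nuclear receptor of vessel and organ development (chromosome 7, 70351946 to 70366746), had 66.9, 57.2, 31.4 and 29.98 CPM in brain and heart, against 16.8, 7.32, 14.5 and 13.8 CPM in kidney and liver. It was above kidney and liver in every brain and heart library, 3.48-fold higher with a difference of 1.80 ± 0.25 (adjusted p = 0.000106). Ggta1, the enzyme of the alpha-galactose epitope (chromosome 2, 35400179 to 35464381), had 51.5, 47.9, 32.8 and 24.02 CPM in brain and heart, against 4.10, 17.2, 15.3 and 11.6 CPM in kidney and liver, with a difference of 1.82 ± 0.35 (adjusted p = 0.00155). The other 12 were Cp, Adgrg4, Muc21, Inhbe, Camk1g, Slitrk6, Gab2, Ptprc, Sdc4, Kif12, Irf4 and Gpr108, with differences of 1.40 to 1.73. Muc21, a transmembrane mucin, had 117, 78.7, 101 and 52.2 CPM in brain and heart, against 43.3, 24.8, 31.1 and 16.5 CPM in kidney and liver, a difference of 1.61 ± 0.16 (adjusted p = 1.19e-05). Only Gab2, a signalling adaptor, lost its call when 1 library was left out, at adjusted p = 0.0591 without FFPE brain, 0.0585 without frozen heart, 0.0821 without FFPE heart and 0.0818 without FFPE liver. Without both brain libraries 6 of the 15 were not called, and with the frozen or the FFPE libraries alone 13 and 15 were not.

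Among the 15 largest with less signal in brain and heart, Hspb3, a small heat shock protein gene of muscle (chromosome 13, 113662896 to 113663676), had 8.13, 6.72, 15.6 and 13.3 CPM in brain and heart, against 35.4, 52.7, 76.4 and 61.2 CPM in kidney and liver. Brain was the lowest and heart next, with no overlap, and the difference was -2.40 ± 0.23, 5.26-fold lower (limma adjusted p = 1.14e-05). S1pr5, a sphingosine 1-phosphate receptor of oligodendrocytes and natural killer cells (chromosome 9, 21242917 to 21248443), had 11.05, 9.41, 9.30 and 8.93 CPM in brain and heart, against 28.1, 13.9, 56.8 and 239 CPM in kidney and liver. The 4 brain and heart values were close together and FFPE liver was far above the rest, and the difference of -2.32 ± 0.36 (adjusted p = 0.000315) was not called without both liver libraries (adjusted p = 0.121). Fignl2, a gene related to the microtubule-severing protein fidgetin (chromosome 15, 101050192 to 101078584), had 69.8, 46.1, 89.7 and 80.01 CPM in brain and heart, against 475, 174, 255 and 295 CPM in kidney and liver, a difference of -2.02 ± 0.19 (adjusted p = 1.03e-05). Its classes were separated. Nr1d1, the clock repressor Rev-erb alpha, differed by -2.01 ± 0.18 and Hoxb3 by -2.03 ± 0.26. Further ones were Tpgs1, Prob1, Catip, Dnajb3, Krtap28-13, Magee1, Fam83h and Exoc3l4, at -1.96 to -1.77. All 30 genes kept their call under quantile normalization, and the 15 lower genes kept it with each library left out in turn, but 8 and 7 of them were not called with the frozen or the FFPE libraries alone.

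The promoters of the genes with the 3 largest differences in each direction that have a RefSeq entry are printed to show how their CpG sites, the sites that can carry 5mC, are spread around the start of the gene. Hoxb3 has none. Each runs 250 bases before to 50 after the start that its RefSeq entry gives, which for Ggta1 and Fignl2 lies inside the span of the gene, from the RefSeq annotation of GRCm38.p6, on the minus strand of the genome in all 6 cases and 5′ to 3′ of the gene, with CpG in capitals. Cyp1b1 (chr17:79715012-79715311) holds 16 CpG, Ggta1 (chr2:35461400-35461699) 8 and Nr2f2 (chr7:70366697-70366996) 2. Hspb3 (chr13:113663627-113663926) holds 9, S1pr5 (chr9:21248394-21248693) 27 and Fignl2 (chr15:101054350-101054649) 8.
Cyp1b1: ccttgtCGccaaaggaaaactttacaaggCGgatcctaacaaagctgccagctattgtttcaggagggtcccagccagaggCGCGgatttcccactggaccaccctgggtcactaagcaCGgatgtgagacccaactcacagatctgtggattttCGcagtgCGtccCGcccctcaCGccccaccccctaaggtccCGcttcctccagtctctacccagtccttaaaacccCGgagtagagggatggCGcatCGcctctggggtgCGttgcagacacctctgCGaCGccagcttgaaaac
Ggta1: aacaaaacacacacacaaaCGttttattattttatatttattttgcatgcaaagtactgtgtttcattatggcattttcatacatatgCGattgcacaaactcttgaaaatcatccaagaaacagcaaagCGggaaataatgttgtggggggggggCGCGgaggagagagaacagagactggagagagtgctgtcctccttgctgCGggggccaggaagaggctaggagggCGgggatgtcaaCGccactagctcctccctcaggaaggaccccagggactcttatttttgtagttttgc
Nr2f2: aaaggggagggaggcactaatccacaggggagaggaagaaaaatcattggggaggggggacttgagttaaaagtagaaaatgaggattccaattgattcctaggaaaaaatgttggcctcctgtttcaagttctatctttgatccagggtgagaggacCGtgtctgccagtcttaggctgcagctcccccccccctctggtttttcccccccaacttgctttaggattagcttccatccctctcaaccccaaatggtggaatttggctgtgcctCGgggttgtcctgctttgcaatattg
Hspb3: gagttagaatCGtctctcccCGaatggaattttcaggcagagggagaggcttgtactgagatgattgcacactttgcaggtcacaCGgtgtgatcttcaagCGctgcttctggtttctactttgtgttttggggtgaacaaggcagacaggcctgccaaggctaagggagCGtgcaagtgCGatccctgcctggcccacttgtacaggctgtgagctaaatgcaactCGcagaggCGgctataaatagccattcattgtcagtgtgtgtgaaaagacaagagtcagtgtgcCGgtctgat
S1pr5: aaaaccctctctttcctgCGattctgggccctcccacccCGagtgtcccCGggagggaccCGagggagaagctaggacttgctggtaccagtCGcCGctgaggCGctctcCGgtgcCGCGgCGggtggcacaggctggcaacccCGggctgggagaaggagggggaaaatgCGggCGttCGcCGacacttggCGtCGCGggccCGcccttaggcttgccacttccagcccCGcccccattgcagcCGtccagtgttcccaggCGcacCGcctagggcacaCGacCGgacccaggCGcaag
Fignl2: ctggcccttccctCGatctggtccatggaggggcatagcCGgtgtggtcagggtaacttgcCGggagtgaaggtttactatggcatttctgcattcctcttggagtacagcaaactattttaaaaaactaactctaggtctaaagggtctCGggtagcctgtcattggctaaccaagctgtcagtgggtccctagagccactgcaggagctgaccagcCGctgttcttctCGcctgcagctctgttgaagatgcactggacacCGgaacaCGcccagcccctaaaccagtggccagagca
The CpG counts of the 3 higher and the 3 lower genes overlap, so these sequences show no split by direction.

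Across all tested genes, the lower ones had more CpG in their promoters. A promoter entry was found for 18257 of the 25982 tested genes (70.3%), under the 80% that would make a comparison of sets sound, so these values are a description. The median promoter held 6 CpG for higher genes and 20 for lower genes, against 13 for all tested. Among genes of above-median signal the medians were 11 and 20, against 18. From the quintile of promoters with the fewest CpG to the quintile with the most, the share of higher genes went from 17.6% to 5.97% and that of lower genes from 3.53% to 24.2%, and the mean signal of the genes went up along the same quintiles (median log2 CPM 2.31 to 5.19). The median difference went from 0.80 to -0.12 along them. Relative to genes of like signal the range was smaller, with medians of 0.17, 0.12, -0.03, -0.07 and -0.06.

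A stricter count asked that each of brain and heart differ from each of kidney and liver. Higher in all 4 pairs were 16 genes (0.0616%) and lower were 336 (1.29%), and 16 and 318 of them were also called in the class comparison after quantile normalization. The 16 held 5 mitochondrial genes and, among nuclear genes, Nr2f2, Muc21, Kif12, F11r, Klhdc7a, Axl, Itgax and Tnfaip8l3, the last 5 and the 5 mitochondrial ones outside the naming rule and listed after their values were seen. The other 3 were predicted or unnamed. Of the 336 lower genes, 21 were zinc finger genes and 52 were predicted or unnamed, and differences ran from -2.40 to -0.70. These counts rest on single libraries. The higher count was 16 as given, 1 without frozen brain, 0 without frozen heart or FFPE heart, 25 without frozen kidney, 225 without FFPE kidney, 2 without frozen liver and 15 without either of the other libraries. The lower count was 132 without frozen brain, 0 without frozen heart, 25 without FFPE heart, 107 without frozen kidney, 920 without FFPE kidney, 209 without frozen liver and 185 without FFPE liver.

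Hox genes had lower calls and no higher ones. None of 38 Hox genes, which pattern the body axis, was higher and 14 were lower (23 after quantile normalization), with a median of -1.24. The median was -2.76 for brain against kidney and -2.45 for heart against kidney, but 0.16 and 0.47 against liver. Without both kidney libraries 5 were lower. Hoxd3 had 4.38, 3.73, 4.74 and 5.76 CPM in brain and heart, against 169, 123, 5.40 and 2.08 CPM in kidney and liver. It was high in kidney alone, and without both kidney libraries its difference was 0.45. Hoxa5 differed by -2.37 ± 0.37 (limma adjusted p = 0.000286) with 8.96, 2.54, 7.55 and 11.3 CPM in brain and heart, against 61.5, 33.8, 22.9 and 28.98 CPM in kidney and liver, kidney being the highest organ in each preservation. Of 137 other developmental transcription factor genes 31 were higher and 11 lower, or 23 and 12 after quantile normalization, and the higher count was 12 to 18 without either brain library or either heart library and 48 without FFPE kidney. Foxc1, a forkhead factor of mesoderm, differed by -1.68 ± 0.26 (adjusted p = 0.000294).

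Imprinted and zinc finger genes had more lower than higher calls. Imprinted genes are expressed from 1 parental copy, and their control regions carry 5mC on 1 parental copy. Of 51 measured, 22 were lower and 3 higher, or 10 and 4 after quantile normalization. Relative to genes of like signal their median was -0.08, with 22 genes above and 29 below. The lower count was 12 to 14 without frozen brain or frozen heart, and the higher count 1 to 6. Gnas, which encodes the stimulatory G protein subunit and overlaps other transcripts, had 128, 177, 129.7 and 167 CPM in brain and heart, against 438, 274, 401 and 528 CPM in kidney and liver. Nap1l5, a paternally expressed gene, had 33.97, 33.9, 42.6 and 55.4 CPM in brain and heart, against 67.2, 92.4, 127 and 146 CPM in kidney and liver. Both were separated in all libraries, with differences of -1.42 ± 0.16 (limma adjusted p = 1.99e-05) and -1.35 ± 0.15 (adjusted p = 1.73e-05). Of 390 zinc finger genes, which mostly encode DNA-binding repressors, 115 were lower and 27 higher (66 and 25 after quantile normalization), and the higher count was 8 without frozen brain or either heart library and 56 without FFPE kidney. The zinc finger median relative to genes of like signal was -0.05, with 179 genes above and 211 below. Zfp575 had 57.3, 71.8, 58.1 and 80.01 CPM in brain and heart, against 197, 179, 195 and 261 CPM in kidney and liver. Every kidney and liver library was above every brain and heart library, with a difference of -1.64 ± 0.13 (adjusted p = 5.78e-06).

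Of 40 BTB zinc finger genes 20 were lower and 2 higher, or 7 and 5 after quantile normalization, the higher count being 0 to 4 with 1 library left out. Relative to genes of like signal their median was -0.26, with 14 genes above and 26 below. Zbtb7a, a repressor of blood and fat cell fate, differed by -1.25 ± 0.14 (limma adjusted p = 2.27e-05). Of 58 clustered protocadherin genes, which give neurons their surface identity, 20 were lower and 0 higher, or 8 and 0 after quantile normalization. Their medians were -0.62 and -0.52 against kidney and -0.11 and -0.04 against liver. Genes of some of the clusters share exons, so reads may be shared there. Of 20 genes of the methylation machinery 7 were lower and 0 higher (3 and 0 after quantile normalization), and the lower count was 4 without FFPE heart or FFPE liver. Relative to genes of like signal, the protocadherin median was -0.09, with 22 genes above and 36 below. The machinery median was -0.03 on that measure, with 9 genes above and 11 below. The 47 germline genes had 12 lower and 3 higher calls, with medians of -0.42 and -0.20 for heart and 0.09 and 0.08 for brain, the higher count being 1 to 4 with 1 library left out.

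Collagen genes, which build the extracellular matrix, had more higher than lower calls under both scalings. Of 44 measured, 14 were higher and 3 lower, or 25 and 0 after quantile normalization. The higher count was 6 to 9 without either brain library, either heart library or frozen liver, and the lower count 1 to 4. Col9a3, a cartilage collagen chain, had 42.7, 51.8, 20.5 and 18.5 CPM in brain and heart, against 12.3, 10.2, 12.7 and 9.66 CPM in kidney and liver. Brain was the highest organ and the classes did not overlap, with a difference of 1.44 ± 0.26 (limma adjusted p = 0.000829) that was not called without both brain libraries (adjusted p = 0.251). Of 30 leukocyte genes 8 were higher and 1 lower, or 4 and 1 after quantile normalization, the higher count being 3 to 5 without either brain library, frozen heart or FFPE liver and the lower count 1 to 2. Ptprc, the pan-leukocyte phosphatase CD45, had 71.5, 84.7, 37.7 and 37.9 CPM in brain and heart, against 21.4, 22.9, 20.3 and 16.5 CPM in kidney and liver. Brain was the highest organ, with a difference of 1.43 ± 0.19 (adjusted p = 7.40e-05), and Csf1r, the macrophage growth factor receptor, differed by 0.77 ± 0.17 (adjusted p = 0.00358). Of 19 endothelial genes 1 was higher and 4 lower, or 2 and 2 after quantile normalization. Of 18 fibroblast and smooth muscle genes 0 were higher and 3 lower, or 4 and 1. With 1 library left out, the higher counts of these 2 lists were 0 to 2 and 0 to 4, and the lower count of the fibroblast list 1 to 4.

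Genes of the respiratory chain and the ribosome had few calls, and most lay below the median of genes of like signal. Of 76 nuclear respiratory chain genes 0 were higher and 5 lower (0 to 6 and 2 to 9 with 1 library left out), in contrast to the mitochondrial genome, although the 2 sets were not tested against each other. The median of the nuclear genes was 0.05, and -0.54 after quantile normalization, where 9 were lower and 0 higher. Relative to genes of like signal it was -0.55, with 17 genes above and 59 below. Of 82 ribosomal protein genes 0 were higher and 3 lower (0 to 7 and 2 to 6), with a median of 0.11 that turned to -0.52 after quantile normalization. On that scale 7 were lower and 0 higher. The ribosomal median relative to genes of like signal was -0.54, with 15 genes above and 67 below. Both families have processed copies elsewhere in the genome that can share reads. Of 52 cell cycle and replication genes 6 were higher and 10 lower, the higher count being 2 to 3 without frozen brain or FFPE heart. Mki67, the proliferation marker Ki-67, had 156, 146, 104 and 128 CPM in brain and heart, against 95.5, 89.6, 68.8 and 51.3 CPM in kidney and liver. Its classes did not overlap, and the difference was 0.83 ± 0.14 (limma adjusted p = 0.000495).

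Receptor and Sox genes were counted by family, with no test between families. Of 47 glutamate and GABA receptor genes 11 were lower and 5 higher, or 5 and 6 after quantile normalization. Of 20 adrenergic, muscarinic and natriuretic receptor genes 3 were lower and 3 higher. Of 19 Sox genes 2 were lower and 1 higher. With 1 library left out, the higher counts of these 3 lists were 1 to 7, 0 to 6 and 0 to 4, and the lower count of the Sox genes 1 to 4. Of 1104 olfactory receptor genes 200 were higher and 18 lower, but 45 and 8 after quantile normalization, and 498 had no read in some library. Of 338 vomeronasal receptor genes 24 were higher and 1 lower, but 2 and 4 after it, with a median of 0.88 that became -0.03. The higher counts were 29 to 96 without either brain library, either heart library or FFPE liver and 440 without FFPE kidney for olfactory receptors, and 1 to 14 without either brain library, either heart library or either liver library and 83 without FFPE kidney for vomeronasal receptors, and the lower counts 8 to 27 and 1 to 2.

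**Figure D5:**
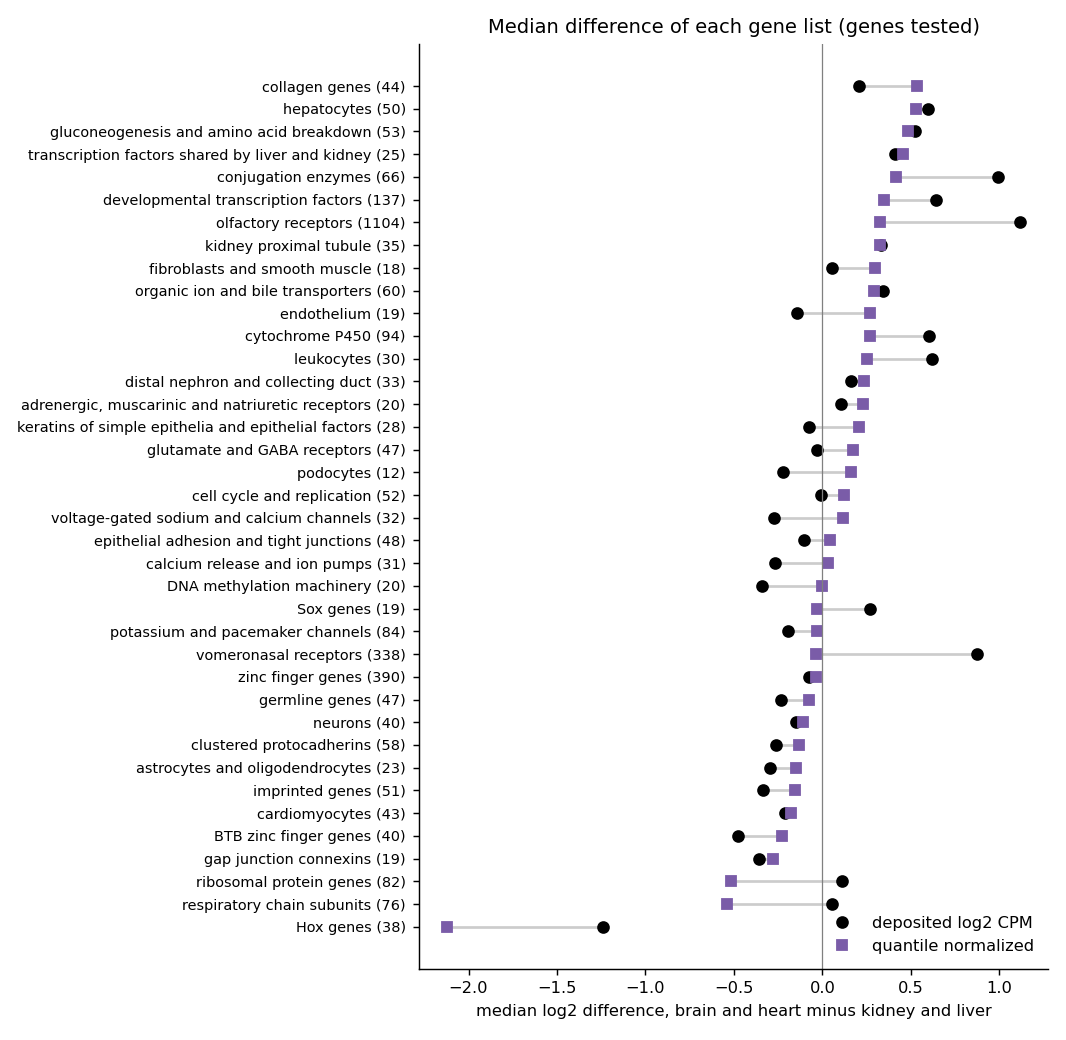
Median log2 difference (brain and heart minus kidney and liver) of the tested genes in 38 gene lists, as deposited (circles) and after quantile normalization (squares), with the number of genes in brackets. Hepatocyte genes stay positive on both scales (0.60 and 0.53) and Hox genes negative (-1.24 and -2.12), while sodium and calcium channel genes change sign (-0.27 and 0.11).

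The calls were spread over the chromosomes. The share of lower genes was 21.5% to 23.3% on chromosomes 5, 8, 10, 15 and 18, against 11.1% to 16.4% on the other autosomes. The former also had the higher median signal, 4.73 to 5.17 log2 CPM against 3.67 to 4.70. Relative to genes of like signal, their median differences were -0.096 to 0.008, against -0.054 to 0.151 on the other autosomes. On the X chromosome, with a median signal of 2.86 log2 CPM, 6.41% of the tested genes were higher and 7.97% lower. These are descriptions over genes, which are not independent replicates.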

How the data were processed

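MeDIP-seq libraries of mouse brain, heart, kidney and liver were compared. Reads were aligned to mm10 with Bowtie2, counted with featureCounts and normalized with limma, per the submitters' processing notes; the sources used here give no versions, settings, counted feature, strand or rule for reads that match several places. The table that the authors deposited holds log2 CPM of 27179 genes in 8 columns, 1 per organ and preservation, with 0.5 added to each read count. Column names give no antibody, and the columns were read as 5mC. The sources used here do not say whether a column pools replicates or whether replicates came from separate animals. The log2 steps gave whole reads for all values (tolerance 0.001), which were used for depth, shares and 1 added alternative (voom weights), with exact Clopper-Pearson 95% intervals, which hold counting error alone because PCR copies of 1 molecule are counted again.

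From the deposited log2 values, limma 3.58.1 (R 4.3.3) was fitted with organ and preservation as terms (5 coefficients, 3 residual and 13.1 prior degrees of freedom, variance trend) on the 25982 genes that reached 1 CPM in 2 or more libraries. The contrast was the mean of brain and heart minus the mean of kidney and liver, with Benjamini-Hochberg adjustment over all tested genes at 0.05. Organ pairs came from the same fit, and the change with preservation from an added interaction. The residual measures how organ differences change with preservation. The procedure was tested on simulated data drawn from the same gene means in every library, apart from planted changes. That simulation held no difference in spread between the classes, so it does not address the pattern with signal level. Figures used matplotlib 3.10.9.

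Named genes were, in each direction, the 15 largest differences among called genes of at least median signal whose libraries did not overlap, leaving out predicted models and small RNAs, and up to 4 called genes with the smallest p from each of 38 lists. Mitochondrial genes, Rn45s and Rn18s were added after their values were seen. A gene's value relative to like signal is its difference minus the median of its decile of mean signal. Members, lists and rules were chosen with earlier results of these data known. Gene positions are those of RefSeq for GRCm38.p6 (mm10), joined by Entrez ID for 25275 of 27179 genes (93.0%). Alternatives were quantile normalization, centring, other filters, a pseudocount of 1 CPM, library weights, organs as replicates, 1 preservation alone, and leaving out each library and each organ. Weights from the recovered reads were added after seeing the data. Input samples were not analysed here, and some genes that the rule names are not reported here.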

Additional observations from a re-analysis of the deposited data

Results flagged for a closer look

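Within each set of 4 libraries, 14 of 374 sets had a library whose gap to the nearest of the others was above Dixon's 95% critical value for its share of the range, and chance flags about 1 in 20 such sets. Among brain and heart libraries, FFPE heart stood apart for Camk1g at 26.8 CPM, Elf5 at 23.23, Gsta3 at 7.345, Foxc1 at 19.65 and Col6a2 at 153.1 CPM, and frozen brain for Cacna1h at 171.5 CPM. Foxc1 and Col6a2 were high there and the others low. Among kidney and liver libraries, FFPE kidney stood apart for Scn8a at 427.9 CPM, Sox9 at 54.11, Cldn11 at 70.18 and Rpl10l at 86.72 CPM, all low. Frozen kidney stood apart for Atp2b1 at 250.9 CPM, which was high, and for Tet1 at 370.5 CPM, which was low. Frozen liver was low for Irf4 at 10.66 CPM, and FFPE liver was high for Rps4l at 95.26 CPM.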

How the results depend on the processing

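Genes higher in brain and heart numbered 1842 with libraries centred on their medians, 1226 among genes of at least median signal, 954 with organs as replicates, 10 in frozen and 3 in FFPE tissue alone, 845 to 5029 with 1 library left out, and 210, 4697 and 1021 without both brain, kidney or liver libraries. Genes lower numbered 2383 after quantile normalization, 1982 with organs as replicates, 125 in frozen and 41 in FFPE tissue alone, 2426 to 4465 with 1 library left out, and 1730 and 1566 without both brain or liver libraries. Genes higher in all 4 organ pairs numbered 37 after quantile normalization, 8 with centring, 7 without a filter, 39 among genes of at least median signal, 28 with a pseudocount of 1 CPM, 47 with weights from the recovered reads, and 0 to 225 with 1 library left out. Genes lower in all 4 numbered 123 after quantile normalization, 670 with centring, 599 among genes of at least median signal, and 0 to 920 with 1 library left out. Genes whose difference changed with preservation numbered 1 after quantile normalization, 0 to 1983 with 1 library left out, and 204 and 1924 without both kidney or liver libraries. The larger of these come from fits with 1 residual degree of freedom, and the cause was not tested.

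With weights from the recovered reads, chosen after the data were seen, 3633 genes were higher and 4178 lower. Of 187 named genes, 35 lost their call after quantile normalization, 26 with organs as replicates, 0 to 24 with 1 library left out, 159 and 172 with frozen or FFPE libraries alone, and 49, 26, 1 and 45 without both brain, heart, kidney or liver libraries, and 2 changed sign under quantile normalization, Kirrel (0.13) and Tet2 (0.050). The sign also turned for mt-Rnr2 without frozen liver (-0.088 to 1.13 with 1 library left out), for Pax2 (0.39) and Hoxd3 (0.45) without both kidney libraries, and for Fga without both liver libraries (-0.11). Leaving out an organ leaves 2 of the 4 pairs, and fits without organ terms have none, so neither gave a value for all 4 pairs. No paired analysis was possible because the columns carry no replicate numbers. A gene with no read could hold up to 0.876 (frozen liver) to 1.42 CPM (FFPE kidney), the limit a count of 0 allows.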
